A study of Caenorhabditis nigoni and Caenorhabditis briggsae with 14 samples.

Results

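Sterile males of the introgression strain ZZY10307 were compared with fertile males of Caenorhabditis briggsae strain AF16, the species that gave ZZY10307 its foreign stretch of X chromosome. The comparison used the 3 ZZY10307 and the 3 AF16 male libraries, 6 of the 14 libraries of the series, and every gene and repeat family counted in them: 23439 genes and 920 families. ZZY10307 males have a mostly C. nigoni genome in which the X chromosome between 4.5 and 12.2 Mb comes from C. briggsae. They were sons of fertile introgression-carrying females and males of JU1421, the wild-type C. nigoni strain, and were picked by a cbr-myo-2::GFP marker. AF16 males are wild-type C. briggsae. Each library was made from messenger RNA of 300 whole young adult males. The strains thus share C. briggsae sequence on part of the X and differ by species over the rest of the genome, and AF16 males came from no such cross or marker selection.

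The remaining libraries served as companions. The 3 male libraries of JU1421 show the level in wild-type males of the species that gave most of the ZZY10307 genome. The 3 male libraries of ZZY10330, another sterile strain with C. briggsae X sequence from 16.4 Mb to the chromosome end, shared the estimate of spread. JU1421 and AF16 also have 1 library each of young adult animals labelled female.

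In nematodes of this genus males have a single X chromosome and make only sperm, and genes of sperm formation make up much of the transcription that sets males apart from females. C. nigoni has males and females, whereas XX animals of C. briggsae are ordinarily hermaphrodites that make sperm before oocytes. Repeat families, which include transposons, differ between even close species in sequence and copy number, and in nematode germlines small RNAs hold many of them in check.

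The 6 libraries held 2390308 to 3686351 gene counts and 13252 to 15081 genes seen at least once. Repeat counts ranged from 112876 to 401363 per library. Spearman correlations across genes, which are not independent replicates, were 0.929 to 0.946 between ZZY10307 libraries, 0.928 to 0.941 between AF16 libraries and 0.750 to 0.775 between the strains. Replicates differed by more than sampling noise, with a chi-square per degree of freedom of 7.01 to 15.9. The labels do not say whether replicates were separate cultures, so p-values cover the spread between the libraries, which may be technical. In whole animals, fewer cells of a type and less RNA per cell cannot be told apart. How reads of 2 species were assigned to 1 list of identifiers was not stated in the sources read, so a difference in transcript level and a difference in how fully a species' reads were counted cannot be told apart either.

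Genes higher and lower in ZZY10307 males were nearly equal in number, and the genes called lower held most of the RNA of the called genes in AF16 males but not in ZZY10307 males. Of 13289 genes with enough counts to test, 1702 were higher and 1768 lower at an adjusted p below 0.05 (edgeR quasi-likelihood test, Benjamini-Hochberg adjustment over all genes). These are 12.8% and 13.3% of the genes tested, 26.1% together. The genes called lower took 17.8, 16.1 and 17.2% of gene counts in the ZZY10307 libraries, against 44.1, 43.9 and 44.97% in the AF16 libraries. The genes called higher took 21.6, 23.04 and 22.3% in ZZY10307, against 7.44, 7.80 and 7.89% in AF16. These shares describe genes chosen by the same contrast and carry no test. In JU1421 males the genes called lower took 34.8 ± 0.946% and the genes called higher 17.4 ± 0.384% (SD, n = 3).

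The balance of calls depended on scaling. Library sizes were corrected by TMM, which sets the bulk of genes to no change on average. With total counts alone, 2662 genes were higher and 1315 lower, so that 66.9% of calls were higher, against 49.05% with TMM. The median of all genes then moved up by 0.30 on the log2 scale, to 0.43 from 0.13, and the medians of the male-biased and female-biased genes given below moved with it.

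Direction varied with abundance. Among the 3080 genes with a mean of 3 to 10 CPM (counts put on the scale of 1 common library size, averaged here over the 12 male libraries), 235 were higher and 97 lower. At 30 to 100 CPM the numbers were close, 606 higher and 646 lower of 3493. Of 1483 genes at 100 to 300 CPM, 242 were higher and 480 lower. Above 1000 CPM, 16 were higher and 46 lower, 12.9% and 37.1%. Genes male-biased in C. nigoni, a set defined below, were much of this excess of lower calls. At 100 to 300 CPM they made up 252 of the 480 lower and 30 of the 242 higher genes. Above 1000 CPM they made up 32 of the 46 lower and 2 of the 16 higher. Expression was also spread over more genes in ZZY10307 males: 727, 746 and 789 genes made up 50% of the counts, against 580, 553 and 599 in AF16 males, and 428 to 518 in JU1421 males. The 50 genes with the largest drop in CPM together lost 110800 CPM, beside a net 322850 CPM over all genes called lower. Of these 50 genes 76% were male-biased in C. nigoni by the definition given below, and of the 200 with the largest drop 68%. The share among all genes tested was 15.5%. A ranking by CPM lost in this same contrast favours abundant genes.

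Many differences were large. Among called genes, 1383 higher and 1412 lower ones differed by at least 2-fold, and 760 and 647 by at least 4-fold. The median size was 1.76 among the higher and 1.62 among the lower genes on the log2 scale, with median standard errors of 0.41 and 0.30. Fitted folds grow without limit where a strain has no count, which held for 262 of the higher and 88 of the lower genes. With those held at a floor of 3 counts over the group, 62 higher and 122 lower genes passed 64-fold.

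**Figure D1:**
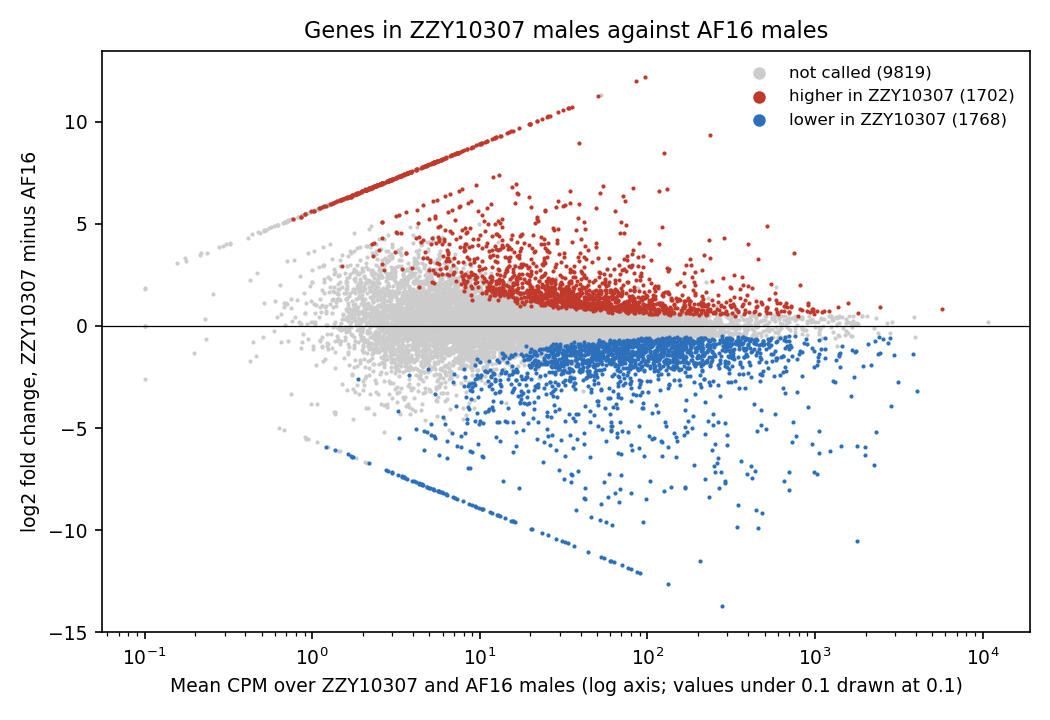
Log2 fold change of each tested gene in ZZY10307 males over AF16 males (vertical axis) against its mean CPM over both strains (log axis). Red points are the 1702 genes called higher, blue the 1768 called lower and grey the rest; called-lower genes dominate to the right, and the straight edges are genes with no count in 1 strain.

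Named by rule were the 2 genes each way with the largest fitted fold, at least 10 CPM in the higher strain and no overlap between libraries. The files pair no identifier with a gene name, function or position. WBGene00037223 stood at 208.9, 181.2 and 190.4 CPM in ZZY10307 males and had no count in AF16 males. It was at least 572-fold higher (adjusted p = 3.37e-06, edgeR). JU1421 males had 6.22, 8.68 and 19.2 CPM, below all ZZY10307 libraries. ZZY10307 males were thus above both parents for this gene, with a log2 fold change of 4.08 ± 0.57 (SE) over JU1421 (adjusted p = 0.000170, edgeR). ZZY10330 males, at 23.9, 37.3 and 113.4 CPM, also lay above all libraries of both parents.

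WBGene00029308, a gene with male bias in C. nigoni, stood at 136.0, 194.8 and 179.4 CPM in ZZY10307 males and had no count in AF16 males. It was at least 503-fold higher (adjusted p = 1.69e-10, edgeR). In JU1421 males it had 45.6, 27.7 and 35.6 CPM, so again all ZZY10307 libraries lay above the C. nigoni males. The log2 fold change over JU1421 was 2.23 ± 0.33 (SE), with adjusted p = 4.17e-05 (edgeR). ZZY10330 males had 29.7, 17.8 and 12.2 CPM.

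WBGene00034777 had no count in ZZY10307 males, against 714.7, 619.6 and 344.4 CPM in AF16 males. It was at least 1841-fold lower (adjusted p = 2.71e-05, edgeR). JU1421 males had 2.90, 0 and 0 CPM, and the gene was not called between ZZY10307 and JU1421 (adjusted p = 0.304, edgeR). It is female-biased in C. nigoni, with 16984 counts in the JU1421 female library and 31401 in the AF16 one. AF16 males were thus the only male group of the 4 with more than 10 counts of it.

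WBGene00031675, male-biased in C. nigoni, had no count in ZZY10307 males, against 200.6, 252.6 and 338.1 CPM in AF16 males. It was at least 868-fold lower (adjusted p = 0.000177, edgeR). JU1421 males had 1.66, 9.50 and 8.80 CPM, between the others, and ZZY10307 was also called lower than JU1421 (adjusted p = 0.0291, edgeR). Neither female library had a count of it.

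**Figure D2:**
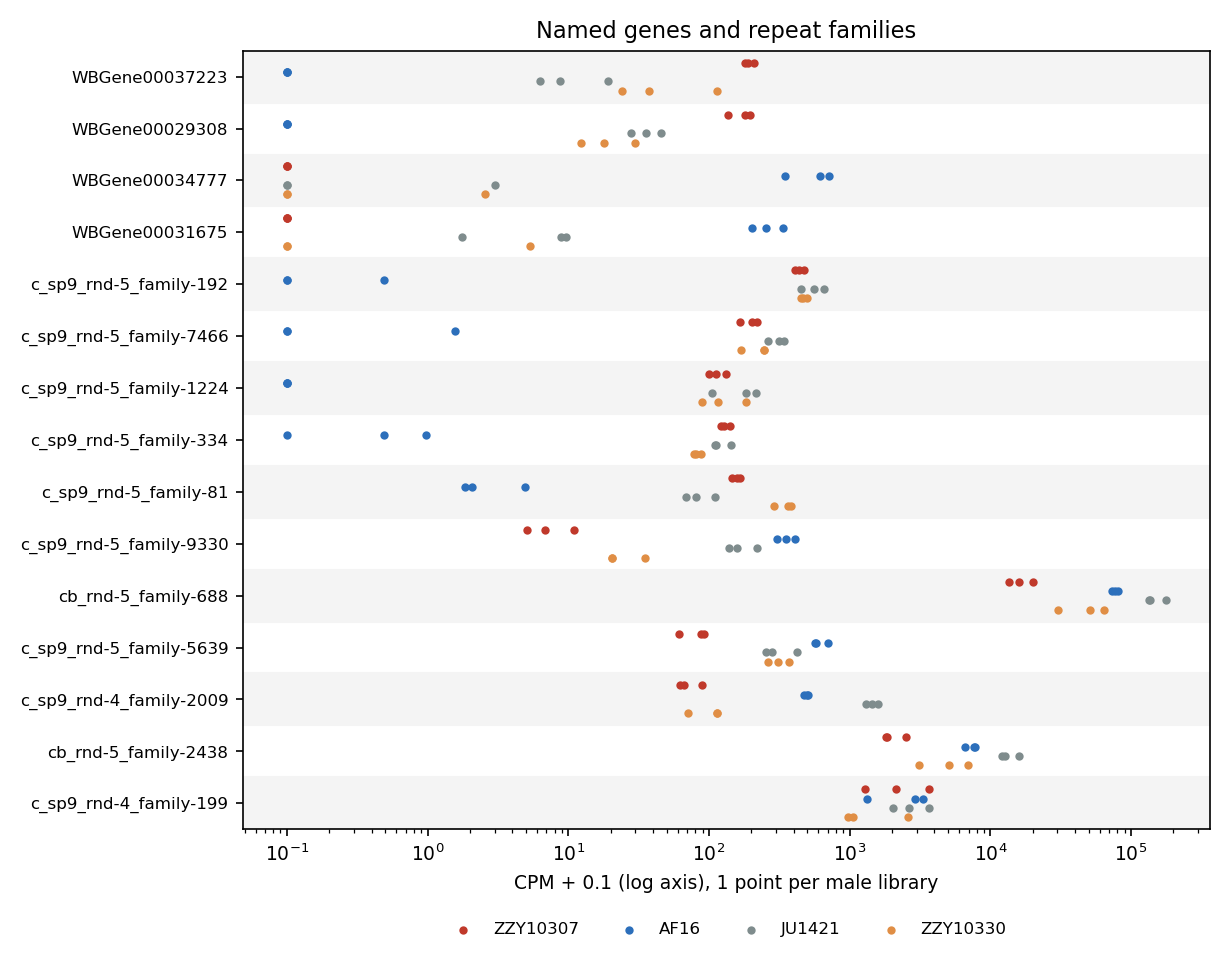
CPM plus 0.1 (log axis) of the 4 named genes and 11 named repeat families in each of the 3 male libraries of ZZY10307 (red), AF16 (blue), JU1421 (grey) and ZZY10330 (orange), with 1 point per library and points at 0.1 for no count. The ZZY10307 and AF16 points are separate for every item except c_sp9_rnd-4_family-199, the last, where they overlap.

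Genes expressed mainly in males made up most of the genes that fell. Sex bias was defined in JU1421, whose libraries are in neither compared group: a gene had to differ by at least 4-fold between the mean of 3 male libraries and the 1 female library, to reach 5 CPM in the sex with more, and to differ in the same direction in each male library. This gave 2066 male-biased and 1153 female-biased genes. Of the male-biased genes 2060 were tested, of which 955 fell and 261 rose in ZZY10307 against AF16. That is 46.4% lower, against 13.3% of all genes tested, and 12.7% higher, against 12.8%. The median log2 fold change was -1.03, against 0.13 over all genes and 0.21 over genes of neither class. Male-biased genes made up 54% of all genes called lower, 15.3% of those called higher and 15.5% of those tested.

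The same was seen in the share of RNA. Male-biased genes took 13.5, 12.4 and 12.99% of gene counts in ZZY10307 males, against 29.9, 30.1 and 30.9% in AF16 males. All ZZY10307 libraries lay below all AF16 libraries, and the difference of means was -17.3 percentage points (exact two-sided permutation test, p = 0.1, the smallest that 3 against 3 libraries allow). JU1421 males had 35.3 ± 1.83% and ZZY10330 males 19.7 ± 2.36% (SD, n = 3 each). In the female libraries these genes took 0.666% in JU1421 (exact 95% binomial interval 0.657 to 0.675%) and 2.75% in AF16 (2.73 to 2.77%), intervals that cover counting error only. Every male library carried a larger share of them than either female library. Between JU1421 males and the JU1421 female library this follows from the definition of the set.

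The fall was larger in the classes with a higher male-to-female ratio. With a prior count of 2 in the ratio, a gene without female counts reaches a high class only if abundant in males. The classes are thus also classes of abundance, with median JU1421 levels of 14.95, 32.4, 109.1 and 435.1 CPM from lowest to highest. Of 760 genes with 4 to 16-fold male bias, 134 rose and 130 fell, with a median log2 fold change of 0.10. At 16 to 64-fold bias, 62 rose and 240 fell of 539, with a median of -1.22. At 64 to 256-fold, 36 rose and 384 fell of 513, with a median of -1.46. Above 256-fold, 29 rose and 201 fell of 248, with a median of -1.51. Genes in the lowest class thus moved both ways in like numbers, whereas 81% of those in the highest class fell. The classes were not tested against each other.

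The levels of the highest class show how even this was between libraries. Its 248 genes had median levels of 121.1, 102.1 and 107.4 CPM in the ZZY10307 libraries, against 338.3, 354.1 and 334.4 CPM in the AF16 libraries. JU1421 males had 417.5, 448.2 and 440.7 CPM, and ZZY10330 males 187.0, 117.7 and 202.2 CPM. The class took 5.88 ± 0.599% of gene counts in ZZY10307 males, against 17.2 ± 0.258% in AF16 males (SD, n = 3 each). In the class of 4 to 16-fold bias the library medians were 10.6, 11.1 and 10.6 CPM in ZZY10307, against 10.7, 11.7 and 10.4 CPM in AF16, ranges that overlap.

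**Figure D3:**
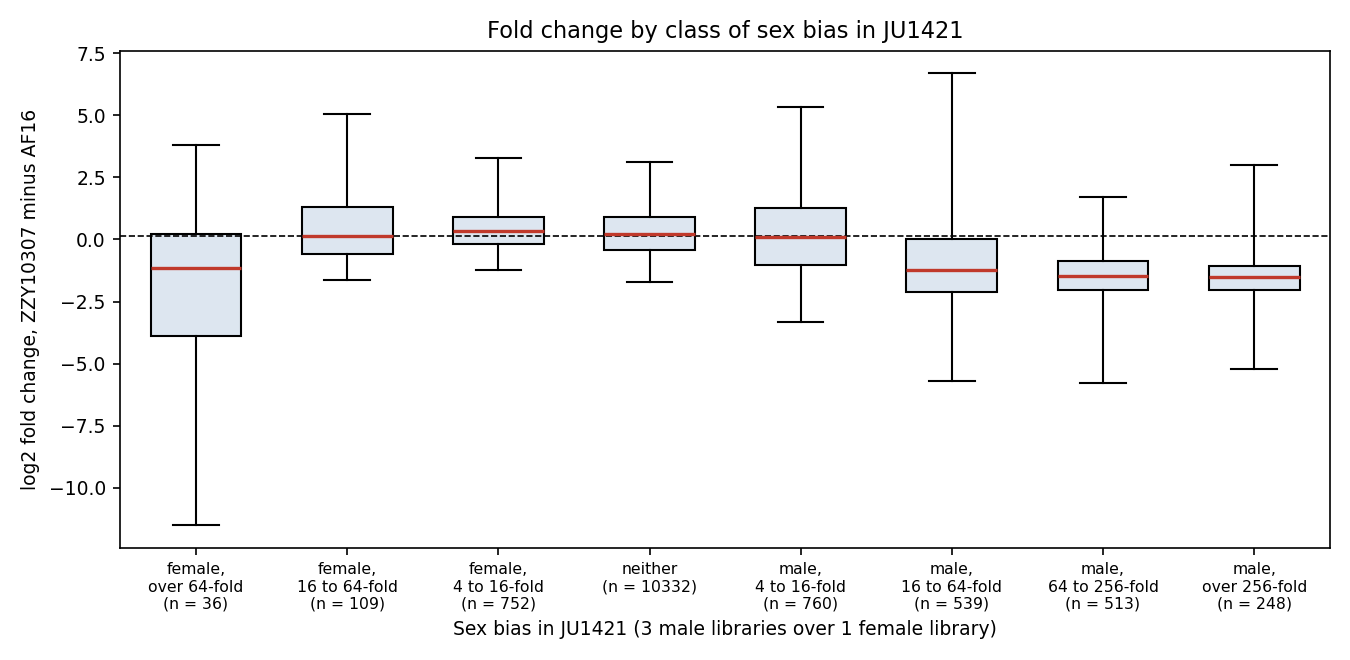
Log2 fold change of genes in ZZY10307 males over AF16 males, grouped by sex bias in JU1421. Boxes span the quartiles with the median in red, whiskers run from the 5th to the 95th percentile, and the dashed line is the median of all genes, 0.13; medians fall from 0.10 to -1.51 across the male-biased classes.

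Bias strength and abundance went together, so male-biased genes were also split by abundance. Of 349 at 3 to 10 CPM, 52 rose and 16 fell, and none of 22 below that was called. Of 547 at 10 to 30 CPM, 79 rose and 158 fell, and of 668 at 30 to 100 CPM, 82 rose and 407 fell. Of 319 at 100 to 300 CPM, 30 rose and 252 fell. Of 116 at 300 to 1000 CPM, 16 rose and 90 fell. Of 39 above 1000 CPM, 2 rose and 32 fell. Lower calls outnumbered higher calls in each range from 10 CPM up, and higher calls outnumbered lower ones at 3 to 10 CPM. The latter held for all genes tested at 3 to 10 CPM too, with 7.63% higher and 3.15% lower. At 10 to 30 CPM 12.3% of all genes were higher and 7.65% lower, against 14.4% and 28.9% of male-biased genes. At 300 to 1000 CPM the values were 19.5% and 40.5%, against 13.8% and 77.6%.

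Male-biased genes also differed by their counts in the female libraries. The largest group, 823 genes with counts in the AF16 female library but none in the JU1421 one, had 42 higher and 507 lower, with a median log2 fold change of -1.41. The 900 genes counted in both female libraries had 128 higher and 327 lower, with a median of -0.57. Of 249 genes counted in neither, 60 were higher and 100 lower. Only the 88 genes with counts in the JU1421 female library alone had more higher than lower calls, 31 against 21, with a median of 1.23. Whether an AF16 female library holds a count depends on AF16 expression, as does the fold change, so these groups are not independent of AF16. All 7052 listed genes without a count in either female library, whatever their class, took 0.524, 0.442 and 0.486% of gene counts in ZZY10307 males. In AF16 males they took 2.48, 2.59 and 2.99%.

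The 261 male-biased genes that were higher stood apart from the rest by their level in AF16. They took 2.12, 2.22 and 2.15% of gene counts in ZZY10307 males, against 0.415, 0.421 and 0.442% in AF16 males. In JU1421 males they took 5.48 ± 0.337% and in ZZY10330 males 3.06 ± 0.373% (SD, n = 3 each). Their summed share was thus smaller in ZZY10307 than in C. nigoni males, which does not hold for each gene, as WBGene00029308 shows. The 261 genes were chosen by their low level in AF16 relative to ZZY10307. The 955 male-biased genes that fell took 7.53 ± 0.618% in ZZY10307, against 27.1 ± 0.360% in AF16, with 24.6 ± 1.29% in JU1421 and 12.1 ± 2.15% in ZZY10330 (SD, n = 3 each). For these, AF16 and JU1421 males were closer to each other than either was to ZZY10307. The 955 genes were chosen as lower in ZZY10307 than in AF16 and as high in JU1421 males. A share below that of both parents thus follows in part from the choice.

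The remaining genes called lower, 813 without male bias, took 9.48 ± 0.259% of gene counts in ZZY10307, against 17.3 ± 0.219% in AF16. Here JU1421 males had 10.3 ± 0.344%, close to ZZY10307. The 1441 genes called higher without male bias took 20.1 ± 0.671% in ZZY10307, against 7.28 ± 0.226% in AF16, with 11.9 ± 0.0852% in JU1421 and 16.4 ± 0.939% in ZZY10330 (SD, n = 3 each). Their share in ZZY10307 lay above that of both parents. These shares are again descriptions of genes chosen by the contrast.

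Beside each other, the companion medians of the male-biased set were -1.51 in ZZY10307 over JU1421, with 36 genes higher and 1188 lower, and -0.40 in AF16 over JU1421. The backgrounds over all 13289 genes were 9.29% higher and 13.5% lower in ZZY10307 over JU1421. JU1421 libraries both defined the set and serve in these comparisons, which share libraries with each other and with the main one, so the values are descriptions only.

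Female-biased genes moved less, and not all one way. Of 897 tested, 114 were higher and 31 lower. These are 12.7% and 3.46%, against 12.8% and 13.3% of all genes tested, so the share of higher calls was that of the background. The median log2 fold change was 0.29, against 0.13 over all genes. They took 4.04, 3.75 and 3.93% of gene counts in ZZY10307 males, against 3.19, 2.92 and 3.14% in AF16 males (difference 0.829 percentage points, exact two-sided permutation test, p = 0.1, the smallest possible). JU1421 males had 1.61 ± 0.187% and ZZY10330 males 3.03 ± 0.297% (SD, n = 3 each). With a minimum ratio of 8 in place of 4 the difference was -0.0678 points, a sign that rested on a single gene, WBGene00024796, singled out after its values were seen. That gene had 1.55, 4.19 and 1.06 CPM in ZZY10307 males, against 4343, 2990 and 3368 CPM in AF16 males (log2 fold change -10.52 ± 0.50, SE; adjusted p = 6.76e-11, edgeR), and 4.98, 7.85 and 4.399 CPM in JU1421 males. Without it the difference was 1.17 points at a ratio of 4 and 0.269 points at a ratio of 8. Shares are parts of the same total, so a smaller male-biased share by itself makes the others larger. Genes of neither class also took more, 83.1 ± 0.679% in ZZY10307 against 66.6 ± 0.556% in AF16 (SD, n = 3 each). The female-biased difference in share was not separated from this.

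The genes with 4 to 16-fold female bias took 3.58 ± 0.126% in ZZY10307 against 2.41 ± 0.0745% in AF16. The 304 genes with bias over 16-fold took 0.343, 0.301 and 0.331% in ZZY10307, against 0.749, 0.591 and 0.670% in AF16. Without WBGene00024796 the other 303 took 0.343, 0.300 and 0.331% in ZZY10307, against 0.339, 0.314 and 0.348% in AF16, ranges that overlap (exact two-sided permutation test, p = 0.6). Of the 145 genes of this class with enough counts to test, 21 were higher and 12 lower, with a median log2 fold change of -0.03. Above 64-fold, 79 genes took 0.0482, 0.0429 and 0.0451% in ZZY10307, against 0.591, 0.441 and 0.472% in AF16. Without WBGene00024796 the other 78 took 0.0480, 0.0424 and 0.0450% in ZZY10307, against 0.181, 0.163 and 0.150% in AF16, so that all ZZY10307 libraries still lay below all AF16 libraries (exact two-sided permutation test, p = 0.1, the smallest possible). In JU1421 males they took 0.0163 ± 0.000999% (SD, n = 3). WBGene00034777, named above, is still among these 78, at 714.7, 619.6 and 344.4 CPM in AF16 males and no count in ZZY10307 males. Its part of the difference was not separated. Of the 36 genes with over 64-fold bias that had enough counts to test, 4 were called higher and 9 lower, with a median of -1.16.

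**Figure D4:**
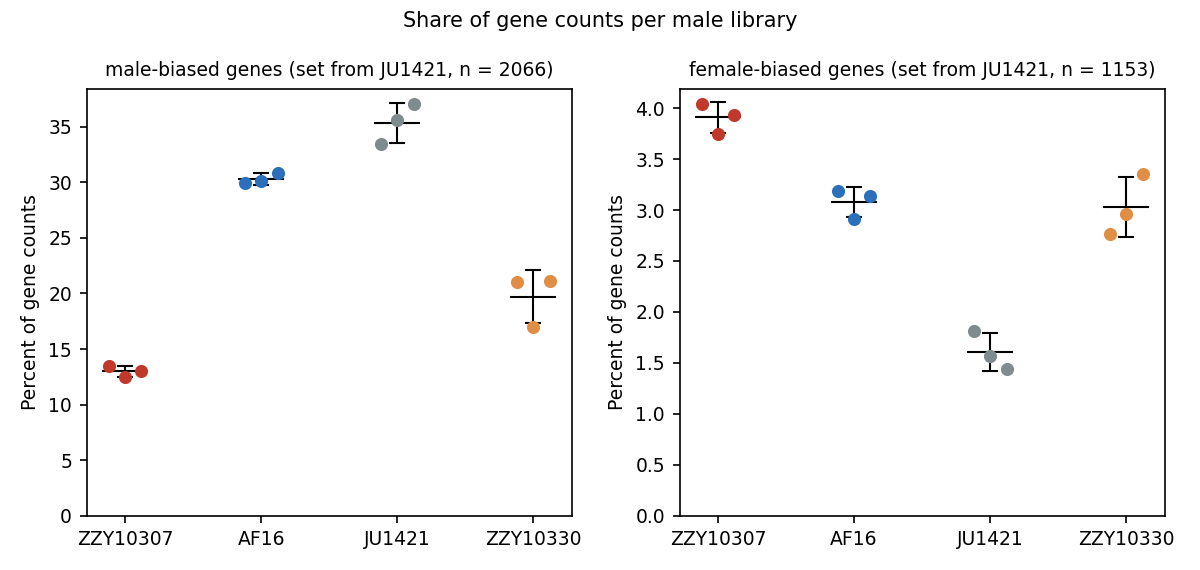
Percent of gene counts taken by genes male-biased (left) and female-biased (right) in JU1421, in each male library (points), with the mean and SD over 3 libraries (black). Male-biased genes take about 13% in ZZY10307 against 30% in AF16, and female-biased genes 3.9% against 3.1%. Shares are parts of the same total, so a smaller male-biased share by itself makes the others larger.

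Genes detected in 1 strain only were counted after the data had been seen. There were 512 genes with counts in all 3 ZZY10307 libraries and none in AF16 males, and 212 with the reverse pattern. Of the 512, 42.4% had counts in all JU1421 male libraries and 14.3% in none. Of the 212, 12.3% had counts in all JU1421 male libraries and 61.8% in none. For comparison, 51.5% of all listed genes had counts in every JU1421 male library and 32.8% in none.

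Genes detected in only 1 parent at 10 CPM or more were followed into ZZY10307. Of 51 genes counted in AF16 males and not in JU1421 males, 32 had no count in ZZY10307 and 2 reached at least 25% of the AF16 level. Of 92 genes counted in JU1421 males and not in AF16 males, 2 had no count in ZZY10307 and 55 reached at least 25% of the JU1421 level. The median over all 92 was 33.9%. In ZZY10330 males, 34 of the 51 had no count, and 62 of the 92 reached 25%, with a median of 37.7% over the 92. The genes were chosen for their level in 1 parent, so a lower level in another strain follows in part from the choice. Which of these genes lie within the introgressed stretch was not analysed here, since the files give no positions.

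Repeat families differed in opposite directions by the prefix of their number. The files list 559 families as c_sp9 and 361 as cb and do not say what the prefixes mean. As background, C. nigoni was known as Caenorhabditis sp. 9 before it was named. Of 696 families with at least 10 counts over the 12 male libraries, 103 were higher and 52 lower in ZZY10307 than in AF16 (edgeR, adjusted p below 0.05), 14.8% and 7.47%, 22.3% together. Of 420 c_sp9 families, 96 were higher and 12 lower. Of 276 cb families, 7 were higher and 40 lower. The median log2 fold change was 1.80 for c_sp9 and -1.06 for cb, or 1.21 and -1.05 with strains at no count held at the floor, over the 394 and 267 families above it.

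The smaller of these counts rested on few libraries. The 12 c_sp9 families called lower became 6 without ZZY10307 replicate 2, without ZZY10307 replicate 3 or without AF16 replicate 1. The 7 cb families called higher became 4 without ZZY10307 replicate 3 or AF16 replicate 1 and 3 without AF16 replicate 2. The 40 cb families called lower became 24 without ZZY10307 replicate 3 and 25 without AF16 replicate 2. In the fit the spread of most families was a single trend shared by all, so their small adjusted p-values do not rest on each family's own libraries alone.

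Against JU1421 the same families were mostly not called. In ZZY10307 over JU1421, 25 of 696 were called, 3.59% (1.01% higher and 2.59% lower): 4 higher and 12 lower among c_sp9, and 3 higher and 6 lower among cb. In AF16 over JU1421, 144 were called, 20.7% (7.18% higher and 13.5% lower): 9 higher and 85 lower among c_sp9, and 41 higher and 9 lower among cb. These comparisons share libraries with the main one.

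Detection followed the same split. There were 74 families with counts in all ZZY10307 libraries and none in AF16, 66 of them c_sp9 and 8 cb. There were 30 with the reverse pattern, 7 of them c_sp9 and 23 cb. Of the 96 c_sp9 families called higher, 48 had no count in any AF16 male library, and of the 40 cb families called lower, 13 had none in ZZY10307.

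The c_sp9 families that were higher at the lowest adjusted p were at or near 0 in AF16. Family c_sp9_rnd-5_family-192 stood at 436.1, 474.6 and 409.8 CPM of gene counts in ZZY10307, against 0, 0 and 0.393 CPM in AF16. With 1 AF16 count, the ratio was 3933 with a counting interval of 705.6 to 155400 (adjusted p = 2.35e-99, edgeR). JU1421 males had 552.9 ± 102.9 CPM (SD, n = 3), and the log2 fold change of ZZY10307 over JU1421 was -0.33 ± 0.28 (SE; adjusted p = 0.722, edgeR). Family c_sp9_rnd-5_family-1224 stood at 100.6, 112.0 and 131.4 CPM in ZZY10307 with no count in AF16, at least 339-fold higher (adjusted p = 8.80e-55, edgeR).

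Family c_sp9_rnd-5_family-7466 stood at 217.6, 201.6 and 166.4 CPM in ZZY10307, against 0, 1.46 and 0 CPM in AF16. Family c_sp9_rnd-5_family-334 stood at 121.4, 140.8 and 128.2 CPM in ZZY10307, against 0, 0.877 and 0.393 CPM in AF16. Their log2 fold changes were 8.38 ± 0.48 and 8.07 ± 0.56 (SE), with adjusted p = 3.38e-61 and 4.10e-44 (edgeR). These sizes rest on very few AF16 counts: all 5 counts of the first were in AF16 replicate 2, without which it had none, and the second was at 9.16 without that library. Family c_sp9_rnd-5_family-81 had 159.2, 166.5 and 144.5 CPM in ZZY10307, against 4.82, 1.75 and 1.97 CPM in AF16, a log2 fold change of 5.77 ± 0.42 (SE; adjusted p = 1.60e-40, edgeR), or 6.37 without AF16 replicate 1. In JU1421 it had 109.6, 80.1 and 68.8 CPM, all below ZZY10307, though the difference missed the threshold (adjusted p = 0.178, edgeR).

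Not every c_sp9 family followed its prefix. Family c_sp9_rnd-5_family-9330 had 10.9, 4.97 and 6.71 CPM in ZZY10307, against 354.1, 408.2 and 306.6 CPM in AF16. It was 47.3-fold lower (log2 fold change -5.56 ± 0.40, SE; adjusted p = 3.40e-40, edgeR). JU1421 males had 137.8, 217.7 and 157.2 CPM, so that ZZY10307 lay below both parents, with a log2 fold change of -4.50 ± 0.39 over JU1421 (SE; adjusted p = 1.61e-28, edgeR). ZZY10330 males, at 35.2, 20.4 and 20.5 CPM, also lay below both.

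A pair of further c_sp9 families were lower in ZZY10307 than in both parents. Family c_sp9_rnd-5_family-5639 had 91.6, 61.0 and 88.0 CPM in ZZY10307, against 570.9, 704.7 and 573.2 CPM in AF16, with 319.1 ± 91.8 CPM in JU1421 (SD, n = 3). Family c_sp9_rnd-4_family-2009 had 88.5, 61.8 and 66.0 CPM in ZZY10307, against 473.5, 496.8 and 504.8 CPM in AF16, with 1450 ± 152.5 CPM in JU1421 (SD, n = 3). Their log2 fold changes over AF16 were -2.94 ± 0.31 and -2.77 ± 0.29 (SE), with adjusted p = 1.09e-19 and 2.62e-19 (edgeR). Over JU1421 they were -1.99 ± 0.30 and -4.33 ± 0.32 (SE), with adjusted p = 3.30e-09 and 2.46e-39 (edgeR). ZZY10330 males had 314.5 ± 56.5 CPM of the first and 99.2 ± 24.9 CPM of the second (SD, n = 3 each).

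A single cb family was the most abundant repeat family. Family cb_rnd-5_family-688 had 19950, 13460 and 15890 CPM in ZZY10307, against 76730, 80540 and 73500 CPM in AF16, with TMM-scaled library sizes. It was 4.68-fold lower (log2 fold change -2.23 ± 0.23, SE; adjusted p = 3.30e-20, edgeR). JU1421 males were higher than AF16 males, at 148870 ± 24070 CPM, and ZZY10330 males had 48311 ± 16850 CPM (SD, n = 3 each). Family cb_rnd-5_family-2438 had 2523, 1840 and 1798 CPM in ZZY10307, against 6649, 7602 and 7719 CPM in AF16, a log2 fold change of -1.83 ± 0.24 (SE; adjusted p = 9.31e-13, edgeR). Its order over the 4 strains was the same, with JU1421 highest at 13554 ± 2116 CPM (SD, n = 3). Both cb families thus ran lower in ZZY10307 than in either parent, with log2 fold changes over JU1421 of -3.18 ± 0.24 for the first and -2.72 ± 0.25 for the second (SE; adjusted p = 5.69e-37 and 3.81e-25, edgeR).

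The most abundant c_sp9 family showed no detectable difference. Family c_sp9_rnd-4_family-199 had 3689, 1294 and 2149 CPM in ZZY10307, against 2898, 3346 and 1333 CPM in AF16, ranges that overlap widely (log2 fold change -0.09 ± 0.49, SE; adjusted p = 0.948, edgeR). Its sign turned with total counts alone, at 0.20, and over -0.55 to 0.21 when single libraries were left out.

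**Figure D5:**
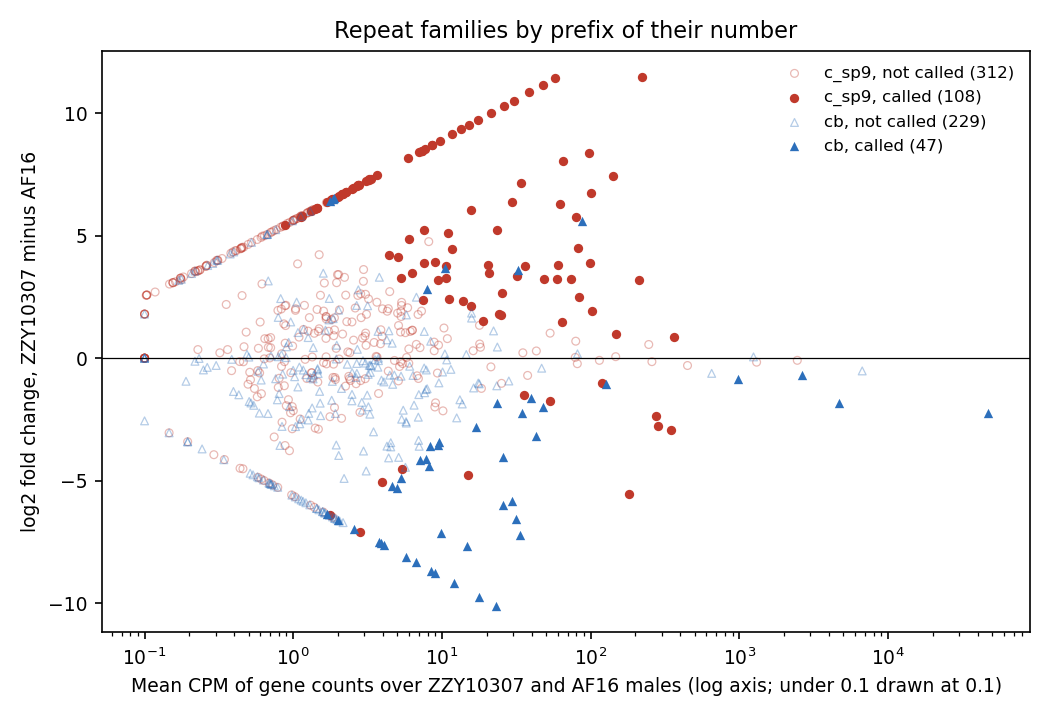
Log2 fold change of each tested repeat family in ZZY10307 males over AF16 males against its mean CPM of gene counts over both strains (log axis). Circles are c_sp9 and triangles cb families, filled where called; the 108 called c_sp9 families lie mostly above 0 and the 47 called cb families mostly below.

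Summed over families, repeat counts scaled by total gene counts (repeat CPM) were lower in ZZY10307 males. The total was 55168, 41299 and 47222 CPM in ZZY10307, against 102860, 108880 and 98962 in AF16, a ratio of means of 0.462. The c_sp9 families summed to 15445, 12241 and 13337 in ZZY10307, against 8785, 9730 and 6982 in AF16, a ratio of 1.61. The cb families summed to 39723, 29058 and 33886 in ZZY10307, against 94075, 99148 and 91980 in AF16, a ratio of 0.360. None of these 3 sums overlapped between the strains, and each exact two-sided permutation test gave p = 0.1, the smallest possible. For JU1421 males the c_sp9 sum was 14338 ± 1034 and the cb sum 150960 ± 15610 (SD, n = 3 each).

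Family cb_rnd-5_family-688 decided the total. It made up 39.5 ± 1.21% of repeat counts in ZZY10307, against 70.1 ± 1.30% in AF16 (SD, n = 3 each). Without it the total was 28909 ± 3663 in ZZY10307 against 31046 ± 2851 in AF16, with overlapping libraries and a ratio of 0.931 (exact two-sided permutation test, p = 0.4). The cb families without it were still lower in every ZZY10307 library, at 15235 ± 2039 against 22547 ± 1631, a ratio of 0.676 (exact two-sided permutation test, p = 0.1, the smallest possible). The c_sp9 families took 28.6 ± 0.887% of repeat counts in ZZY10307, against 8.18 ± 0.992% in AF16 and 8.71 ± 0.782% in JU1421 (SD, n = 3 each). Their sum, however, was 13674 ± 1628 CPM in ZZY10307 and 14338 ± 1034 CPM in JU1421. Family cb_rnd-5_family-688, part of the total behind these shares, was at 18987 ± 3302 CPM in ZZY10307 and 130530 ± 13810 CPM in JU1421 (SD, n = 3 each).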

How the data were processed

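Per the labels' protocols, RNA of 300 picked animals per library was extracted with TRIzol, and male libraries were made from 300 ng with the TruSeq Stranded mRNA kit and sequenced as paired 150 nt reads. For the female libraries neither RNA amount nor read length is stated there. Trimmomatic and edgeR appear, with no version, in the submitters' processing notes. For alignment, counting, genome build, annotation and strand use, nothing is given in the sources used here. Genes that overlap or share reads with near-identical copies are therefore uncertain. The authors deposited raw counts per gene and per repeat family, per the file headers, and no gene names or positions. Planned gene lists by function, genes of the X segment and checks against named markers were therefore not run, and no sequence is shown.

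Analysis used R 4.3.3 with edgeR 4.0.16, limma 3.58.1 and DESeq2 1.42.0. Genes were kept by filterByExpr (minimum count 10), and families with at least 10 counts over the 12 male libraries. The 12 male libraries were TMM-scaled and fitted together with 1 coefficient per strain by the robust quasi-likelihood method. Families were scaled by the gene counts of the same library. Genes or families with a Benjamini-Hochberg adjusted p below 0.05 were called. Single levels are CPM on TMM-scaled library sizes, and repeat sums are CPM of raw gene counts. Sex bias used a prior count of 2, a ratio of 4 and TMM within JU1421, with 1 female library and so no replicate check on the female side. Named were the 2 genes each way with the largest fold, the 5 families each way with the lowest adjusted p and the most abundant family of each prefix. Where a strain had no count, folds are bounds against 3 counts over the group. Floors and binomial intervals, exact at 95%, cover counting error only. Alternatives were RLE scaling, total counts alone, no filter, DESeq2, a fit of 6 libraries only, a replicate block, other definitions of sex bias, other scalings of repeats and leaving out each library. A fit without ZZY10330 and female-biased shares without WBGene00024796 were added after seeing the data. The scripts were tested on simulated data. The comparison and its sets were chosen with earlier results of these data known.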

Additional observations from a re-analysis of the deposited data

How the results depend on the processing

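No called gene or family named by rule changed direction under the other settings run, and c_sp9_rnd-4_family-199, which was not called, did. The difference in the share of female-biased genes, 0.829 points, was -0.0678 at a ratio of 8; without WBGene00024796, left out after seeing the data, it was 1.17 at a ratio of 4 and 0.269 at 8. Lower calls slightly outnumbered higher ones with TMM, whereas 2662 genes were higher and 1315 lower with total counts alone and 1838 and 1813 with no filter. With total counts alone the medians were -0.74 for male-biased and 0.59 for female-biased genes; relative to the median of all genes they were -1.17 and 0.16, against -1.16 and 0.16 with TMM. The female-biased median was 0.26 with RLE, 0.22 with no filter and 0.27 with DESeq2. With 6 libraries only, 60 female-biased genes and 76 cb families were lower, and without ZZY10330 47 and 66. Replicate numbers did not pair the libraries (correlations of same-numbered deviations 0.0203, -0.0468 and -0.00508). With a replicate block 3233 genes and 132 families were called and the female-biased median was 0.33.

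At a ratio of 8, 173 male-biased genes were higher with a median of -1.28, 44 female-biased genes were higher and 17 lower, and the male-biased share differed by -17.9 points. With sets from AF16, 61 male-biased genes were higher, the medians were -1.49 and 0.83, and the shares differed by -19.2 and 1.43 points. With genes biased in both species, 45 male-biased genes were higher with a median of -1.51, and 62 female-biased genes were higher, 17 were lower and their median was 0.55. Sets from AF16 and sets biased in both species were chosen in part by AF16 male levels, which also enter the fold change. Their larger medians and share differences thus follow in part from the choice. With TMM-scaled gene counts, the repeat ratios were 0.377 for all, 1.31 for c_sp9 and 0.294 for cb families. Without the most abundant family they were 0.931 for all and 0.676 for cb.

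Leaving out 1 library gave 2688 to 2913 called genes, against 3470 with all libraries. Male-biased medians were -1.11 to -0.97 and female-biased medians 0.27 to 0.31. Of c_sp9 families 70 to 85 were higher and 6 to 9 lower, and of cb families 3 to 5 were higher and 24 to 32 lower. The cause of these shifts was not tested. Of 468 values under alternatives, 417 stayed within the limits set and 51 moved. The limits were a fixed ratio for counts and the spread between libraries for medians, shares and ratios. Called genes and families had to keep their sign and call. Among the main counts, medians, shares and ratios, 204 stayed and 45 moved. Among the named genes and families and the median of all genes, 213 stayed and 6 moved. Depth limits the rarest genes and families: 3 counts over the group equal 0.304 CPM in ZZY10307 and 0.338 CPM in AF16.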
